A study of Mus musculus with 40 samples.

Results

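NF-kB pathway and inflammasome genes were followed in cervix and myometrium of pregnant mice given human chorionic gonadotropin (hCG) or phosphate-buffered saline (PBS). The 37 genes were a list of symbols (5 Rel family subunits, 5 IkB proteins and atypical regulators, 10 kinases and adaptors, 6 receptors and ligands, 5 inducible effectors and 6 inflammasome and pyroptosis genes), taken from the 23079 genes of the deposited count table, and all 37 were found. The mice were C57BL/6, an inbred laboratory strain, with no engineered allele named, and received hCG, the placental hormone that acts through the luteinizing hormone receptor, or PBS into the peritoneal cavity. Tissue was taken at 18.5 days post coitum, close to delivery. The 4 groups were cervix with PBS, cervix with hCG, myometrium with PBS and myometrium with hCG, with 10 RNA-seq libraries each. The study's title asks how hCG changes the transcriptome of these tissues late in gestation. The hCG dose and its timing were not given in the sources used here. The design text names 10 mice per treatment, but treatment and number in the labels form 22 pairs, 18 of them found in both tissues, and no label says that a number stands for a mouse. Whether the tissues share animals is thus not known, and p-values measure the spread between libraries.

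NF-kB is a family of transcription factors built from Rel subunits, which IkB proteins hold inactive in the cytoplasm. Ligands such as tumour necrosis factor or bacterial products act through receptors, adaptors and ubiquitin ligases on the IkB kinase complex. Degradation of IkB then frees the subunits to enter the nucleus and induce adhesion molecules, cytokines, antiapoptotic proteins and their own inhibitors. Inflammasomes are cytosolic sensor complexes that activate inflammatory caspases, which cleave the pore protein gasdermin D and mature interleukin 1 beta. Both systems are known from studies of the uterus and cervix around parturition, when leukocytes enter these tissues.

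Total counts per library ran from 5449239 to 25028360. In cervix, hCG libraries 1 to 6 and PBS libraries 1 to 4 were sequenced more deeply than the other 10. In PBS cervix libraries 5 to 8, transcripts of Lars2 made up 3.51% to 17.5% of the library, and in hCG cervix libraries no more than 0.121%. Summed levels of 8 squamous epithelium markers were 9353 to 58630 CPM (counts scaled to library size) in PBS cervix and at most 46.7 CPM in myometrium of either treatment, where Sprr3 was at 0 throughout. All 7 smooth muscle markers tested were higher in myometrium. In cervix after hCG, summed squamous markers were 547 to 15563 CPM, and the sum of 5 urothelium markers was 2304 CPM in the hCG library numbered 5 and 626 CPM in number 3, against at most 61.4 CPM in PBS. The sum of 6 skeletal muscle markers reached 5272 CPM in hCG library 1. Counts made from whole tissue cannot tell fewer cells of a type from less RNA per cell.

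Promoter windows of the genes that rose in cervix are shown first, to place the letters of the NF-kB site beside the levels that follow. A window runs from 250 bases before to 50 after a transcript start in RefSeq, on GRCm38.p6, written 5′ to 3′ on the strand of the gene. Where a gene had several windows in the set used, the most upstream is shown. The annotated locus of Aim2 begins at 173349547, far upstream of the start shown, and those of Tnfaip2, Birc2 and Birc3 also begin upstream. RefSeq windows existed for 27 of the 37 genes. Capitals mark matches to the degenerate kB consensus of 10 bases, searched on both strands, and to TTCNNNGAA, the core of the STAT site known as GAS. The windows are from chr9:5308599-5308898 (plus strand) for Casp4, chr11:53769764-53770063 (plus) for Irf1, chr12:111442411-111442710 (plus) for Tnfaip2, chr9:7873121-7873420 (minus) for Birc3, chr9:7837008-7837307 (minus) for Birc2 and chr1:173420354-173420653 (plus) for Aim2.
Casp4: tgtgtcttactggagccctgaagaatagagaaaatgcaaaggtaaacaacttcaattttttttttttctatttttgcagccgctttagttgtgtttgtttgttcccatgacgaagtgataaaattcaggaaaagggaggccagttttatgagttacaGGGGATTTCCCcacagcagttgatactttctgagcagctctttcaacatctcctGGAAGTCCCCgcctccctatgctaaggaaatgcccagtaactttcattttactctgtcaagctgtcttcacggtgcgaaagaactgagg
Irf1: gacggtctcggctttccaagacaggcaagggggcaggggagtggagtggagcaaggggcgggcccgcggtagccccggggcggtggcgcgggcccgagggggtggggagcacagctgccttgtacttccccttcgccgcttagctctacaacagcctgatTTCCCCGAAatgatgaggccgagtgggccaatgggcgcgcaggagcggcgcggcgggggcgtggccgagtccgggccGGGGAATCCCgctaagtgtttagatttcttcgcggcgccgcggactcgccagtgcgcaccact
Tnfaip2: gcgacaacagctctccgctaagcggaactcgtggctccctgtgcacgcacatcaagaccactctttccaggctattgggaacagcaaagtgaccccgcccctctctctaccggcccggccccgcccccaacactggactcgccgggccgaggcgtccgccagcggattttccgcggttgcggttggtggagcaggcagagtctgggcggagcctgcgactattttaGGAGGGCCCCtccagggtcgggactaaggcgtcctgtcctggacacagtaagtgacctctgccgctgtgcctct
Birc3: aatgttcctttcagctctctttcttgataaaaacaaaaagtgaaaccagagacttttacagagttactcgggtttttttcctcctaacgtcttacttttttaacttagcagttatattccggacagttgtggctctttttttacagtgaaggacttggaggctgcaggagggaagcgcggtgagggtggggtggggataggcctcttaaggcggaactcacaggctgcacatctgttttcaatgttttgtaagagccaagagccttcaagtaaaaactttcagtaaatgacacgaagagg
Birc2: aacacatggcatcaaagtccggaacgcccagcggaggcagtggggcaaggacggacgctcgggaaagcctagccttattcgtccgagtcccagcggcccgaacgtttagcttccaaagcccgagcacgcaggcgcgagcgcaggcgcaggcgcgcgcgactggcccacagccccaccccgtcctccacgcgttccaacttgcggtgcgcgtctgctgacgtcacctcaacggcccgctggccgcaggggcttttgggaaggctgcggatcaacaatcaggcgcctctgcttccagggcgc
Aim2: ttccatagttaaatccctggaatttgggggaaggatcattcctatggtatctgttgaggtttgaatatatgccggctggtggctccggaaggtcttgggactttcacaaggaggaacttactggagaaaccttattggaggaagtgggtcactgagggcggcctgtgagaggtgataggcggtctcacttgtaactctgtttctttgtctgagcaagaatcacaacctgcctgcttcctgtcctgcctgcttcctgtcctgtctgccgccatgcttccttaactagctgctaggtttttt
Casp4 carried kB matches in 2 separate places, and Irf1 and Tnfaip2 carried 1 each. In Irf1 the first run of capitals is the GAS match and the other the kB match. No match to these letters was present in the windows of Birc3, Birc2 and Aim2. Over the 27 genes, 12 had a kB match in at least 1 window, namely Bcl3, Casp4, Irf1, Nfkb2, Nfkbia, Nfkbie, Nlrp3, Rel, Sod2, Tlr2, Tnfaip2 and Tnfaip3. Of 32851 RefSeq promoter windows of this length, 8.46% held one. Counted by window, 15 of the 35 windows of these genes held one, or 42.9%. Windows of the same gene can overlap and share a match, as in Casp4 and Nfkb2. The genes were also chosen for their part in the NF-kB pathway, so this share is not an independent result. GAS matches occurred in 8 of the 35 windows, or 22.9%, against 8.3% of all windows, and the interferon response core GAAANNGAA in 4, or 11.4%, against 8.56%. A match in letters does not show that a factor binds there.

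In cervix, 7 of the 37 genes rose after hCG and none fell. They were the inducible effectors Vcam1, Tnfaip2 and Irf1, the inflammasome genes Aim2 and Casp4, and the ubiquitin ligases Birc3 and Birc2. The test was edgeR's quasi-likelihood F-test on the counts, with Benjamini-Hochberg adjustment over all 14932 genes tested and a threshold of 0.05. The 7 genes were 18.9% of the list, against 4.74% of all genes tested that rose, 4.17% that fell and 8.91% in either direction. Each of hCG library 3 and PBS libraries 4, 7 and 8 decides these calls: without any 1 of them none of the 7 passed, and the count over all genes went from 1331 to between 1 and 8. The 7 log2 fold changes kept their sign in those fits. The median log2 fold change was 0.26 over the 37 genes and 0.01 over all genes tested. For none of the 37 did the hCG libraries lie wholly apart from the PBS libraries in CPM, as was the case for 0.0469% of all genes tested.

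**Figure D1:**
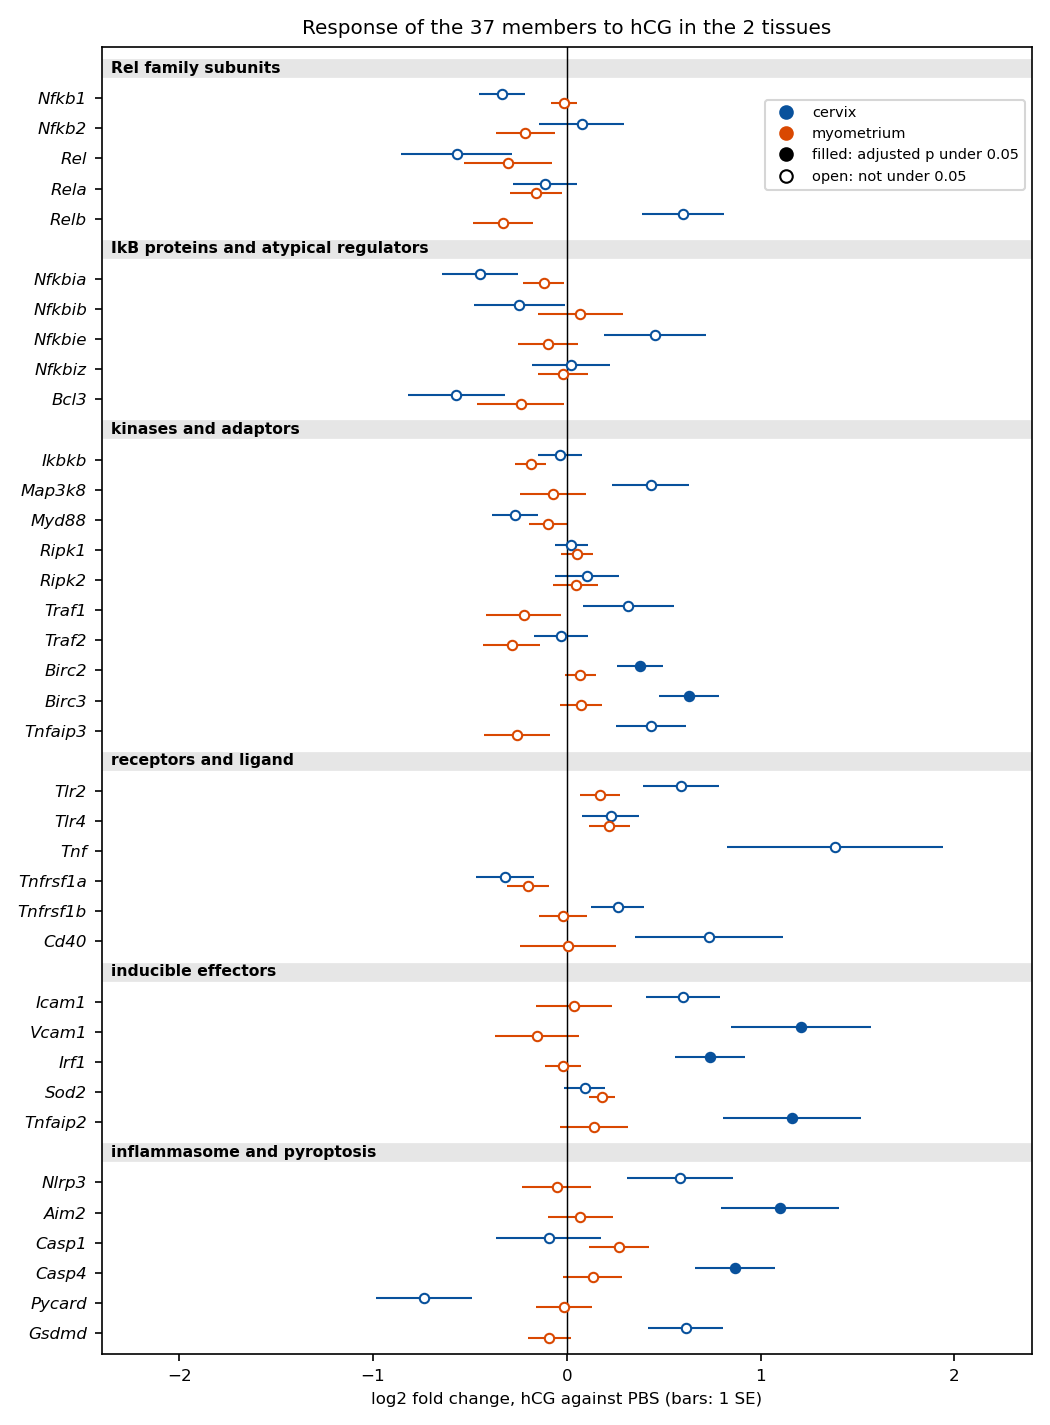
Log2 fold change (hCG against PBS, horizontal axis, bars 1 SE) of the 37 genes, grouped by role, in cervix (blue) and myometrium (orange). Filled points passed an edgeR adjusted p of 0.05. The 7 filled points are all in cervix, between 0.38 and 1.21, and Tnf, too low for the test in myometrium, has a cervix point only.

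Among the inducible effectors, 3 of 5 rose. Vcam1, an endothelial adhesion molecule that holds leukocytes, was 5.53 CPM in the lowest, 11 CPM in the median and 13.0 CPM in the highest PBS cervix library. With hCG these levels were 5.80, 17.9 and 77.3 CPM. Of 10 hCG libraries, 7 lay above the highest PBS library, while libraries 9 and 10 lay within the PBS range at its low end. The log2 fold change was 1.21 (SE 0.36, edgeR adjusted p = 0.0417). Without hCG library 5 it was 0.78 (SE 0.271, edgeR adjusted p = 0.0864). Tnfaip2, a gene induced by tumour necrosis factor, ran from 10.1 through a median of 14.8 to 31.3 CPM with PBS and from 14.2 through 25.7 to 127 CPM with hCG. Only hCG libraries 3, 4 and 5 passed the highest PBS library, but 9 of 10 lay above the PBS median (log2 1.16, SE 0.357, edgeR adjusted p = 0.0457). Without hCG library 5 its log2 fold change was 0.71 (SE 0.257, edgeR adjusted p = 0.0961). For Vcam1 and for Tnfaip2, 14 of the 20 fits with 1 library left out did not pass. Irf1, a transcription factor of the interferon response, ran from 17.1 through 23.9 to 37.8 CPM with PBS and from 31.6 through 38.0 to 77.6 CPM with hCG. All 10 hCG libraries were above the PBS median and 5 above the highest PBS library (log2 0.74, SE 0.182, edgeR adjusted p = 0.0293). Icam1, the other endothelial adhesion molecule of the list, missed the threshold at 6.75, 9.28 and 14.4 CPM with PBS and 7.34, 14.8 and 23.8 CPM with hCG (log2 0.60, SE 0.192, edgeR adjusted p = 0.0523). Sod2, the mitochondrial superoxide dismutase, had medians of 73.8 and 74.6 CPM and a log2 fold change of 0.09.

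Of the 6 inflammasome and pyroptosis genes, 2 rose. Casp4 encodes the mouse caspase also called caspase-11, which senses intracellular lipopolysaccharide. It ran from 6.97 through 10.0 to 13.8 CPM with PBS and from 8.49 through 17.1 to 31.2 CPM with hCG. Of 10 hCG libraries, 8 lay above the highest PBS library and the other two, 9 and 10, lay below the PBS median (log2 0.87, SE 0.207, edgeR adjusted p = 0.0284). Aim2, a sensor of double-stranded DNA in the cytosol, ran from 1.39 through 1.67 to 4.25 CPM with PBS and from 1.27 through 4.95 to 7.78 CPM with hCG. The hCG libraries were above all PBS libraries in 7 cases, and hCG library 10 was below all of them (log2 1.10, SE 0.303, edgeR adjusted p = 0.0341). Aim2 belongs to a family of neighbouring related genes, and whether reads were shared with them was not tested. Gsdmd, the gasdermin pore protein cut by these caspases, missed the threshold at 10.7, 12.8 and 19.7 CPM with PBS and 12.8, 19.3 and 36.1 CPM with hCG (log2 0.61, SE 0.193, edgeR adjusted p = 0.0501), with all 10 hCG libraries above the PBS median. Nlrp3, the sensor of the best known inflammasome, had medians of 1.49 and 2.31 CPM (log2 0.58, edgeR adjusted p = 0.162). Pycard, the adaptor that joins sensor and caspase, had the lowest log2 fold change of the 37 genes, -0.74 (SE 0.246, edgeR adjusted p = 0.06), with medians of 88.0 CPM with PBS and 55.6 CPM with hCG and none of the hCG libraries above the PBS median. Casp1, the caspase that matures interleukin 1 beta, had medians of 39.4 and 34.1 CPM (log2 -0.09, edgeR adjusted p = 0.846).

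**Figure D2:**
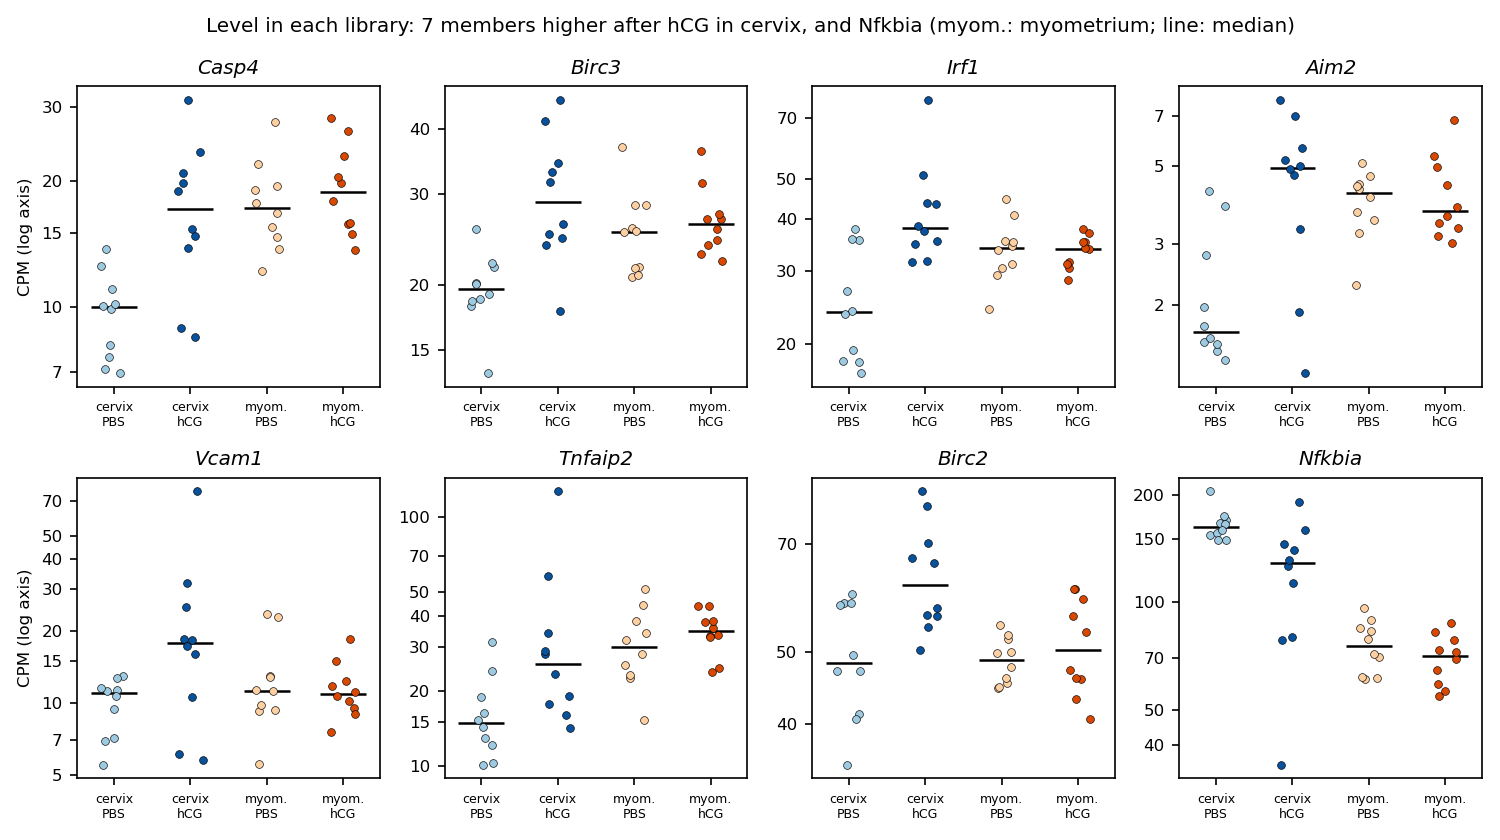
CPM (log axis) in each of the 40 libraries for the 7 genes that rose in cervix and for the inhibitor Nfkbia, by group, with the median as a line. For Casp4, 8 hCG cervix libraries lie above all PBS cervix libraries, and for Vcam1 and Tnfaip2 hCG cervix library 5 stands at 77.3 and 127 CPM.

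The kinases and adaptors included 2 of 10 genes that rose. Birc3 and Birc2 encode cIAP2 and cIAP1, ubiquitin ligases that act downstream of the tumour necrosis factor receptors. Birc3 ran from 13.6 through 19.7 to 25.7 CPM with PBS and from 17.8 through 28.9 to 45.5 CPM with hCG. The highest PBS library was passed by 6 hCG libraries, and 1, library 9, lay below the PBS median (log2 0.63, SE 0.153, edgeR adjusted p = 0.029). Birc2 ran from 35.3 through 48.4 to 59.9 CPM with PBS and from 50.4 through 61.6 to 82.3 CPM with hCG, with all 10 hCG libraries above the PBS median (log2 0.38, SE 0.117, edgeR adjusted p = 0.0472). It was the smallest of the 7 changes. Tnfaip3, the deubiquitinase A20 that ends NF-kB signalling, had medians of 9.09 and 11.1 CPM (log2 0.43, edgeR adjusted p = 0.117). Map3k8, a kinase upstream of ERK, had medians of 8.86 and 14.4 CPM (log2 0.43, edgeR adjusted p = 0.153). Traf1, an adaptor of tumour necrosis factor receptors, had a log2 fold change of 0.32. The IkB kinase gene Ikbkb, the receptor-interacting kinases Ripk1 and Ripk2, and the adaptor Traf2 lay between -0.03 and 0.11. The Toll-like receptor adaptor Myd88 was at -0.27 (edgeR adjusted p = 0.14).

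None of the 6 receptors and ligands passed. Tlr2, the receptor of bacterial lipoproteins, came closest, at 6.88, 12.1 and 21.1 CPM with PBS and 9.49, 18.6 and 26.9 CPM with hCG, with 9 of 10 hCG libraries above the PBS median (log2 0.59, SE 0.196, edgeR adjusted p = 0.0599). Tnf, the cytokine itself, had the highest log2 fold change of the list and the widest spread. Its lowest, median and highest levels were 0.179, 0.748 and 2.06 CPM with PBS and 0.124, 1.46 and 5.94 CPM with hCG (log2 1.38, SE 0.557, edgeR adjusted p = 0.105), from 2 to 114 counts per hCG library. Libraries 3, 4 and 6 were above the PBS range and library 5 was below it. Tnf was too low to be tested in the comparisons without hCG cervix libraries. Its rank here thus leans on the group in which it was high. Cd40, the costimulatory receptor that feeds the noncanonical pathway, had medians of 0.78 and 1.11 CPM (log2 0.73, edgeR adjusted p = 0.204). Tlr4, the lipopolysaccharide receptor, was at a log2 fold change of 0.23, Tnfrsf1b at 0.26 and Tnfrsf1a at -0.32, the last pair being the receptors of tumour necrosis factor.

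The transcription factor subunits and their inhibitors did not pass in either direction. Relb, the noncanonical subunit, had medians of 3.62 CPM with PBS and 5.0 CPM with hCG (log2 0.60, SE 0.211, edgeR adjusted p = 0.0706), and 7 of 10 hCG libraries lay above all PBS libraries. Nfkb1, which encodes p105 and p50, had medians of 101 and 88.9 CPM (log2 -0.34, SE 0.119, edgeR adjusted p = 0.0727), and 6 hCG libraries lay below all PBS libraries. Nfkbia, the gene of the main inhibitor IkB alpha and a textbook NF-kB target, had medians of 162 and 129 CPM (log2 -0.45, SE 0.198, edgeR adjusted p = 0.137). Of its hCG libraries, 8 lay below all PBS libraries and library 5 was lowest at 35.3 CPM. The subunits Rel, Rela and Nfkb2 had log2 fold changes of -0.57, -0.11 and 0.08. The nuclear cofactor Bcl3 was at -0.57 (edgeR adjusted p = 0.133), the inhibitors Nfkbib and Nfkbie at -0.24 and 0.45, and the atypical regulator Nfkbiz at 0.02.

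The genes that rose did not peak in the same cervix libraries. Vcam1 and Tnfaip2 were highest in hCG library 5 and next in library 3, as was Gsdmd, and Icam1 was highest in library 5. Casp4, Birc3 and Tlr2 were highest in library 6, Aim2 in library 3, Irf1 in library R3 and Birc2 in library 2. The standard deviation as a share of the mean was 91.4% for Vcam1 and 93.5% for Tnfaip2 with hCG, against 26.1% and 40.2% with PBS, whereas for Irf1 it was 32.2% and 31.4%. Of the 37 genes, hCG library 3 had 16 above the highest PBS library, library 6 had 15 and library 4 had 14, whereas libraries 9 and 10 had 3 and 2. The hCG libraries 5, 1, 2, R3 and 7 had 12, 10, 7, 7 and 5. PBS libraries, each set against the other PBS libraries, had from 0 (libraries 1 and 10) to 10 (library 2), with 8 in library 4 and 7 in library R3. The hCG libraries also held genes below the lowest PBS library, 9 of them in library 6, 8 each in libraries 2, 5 and 7, and 1 and 3 in libraries 9 and 10. The share over all genes was not counted for single libraries.

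**Figure D3:**
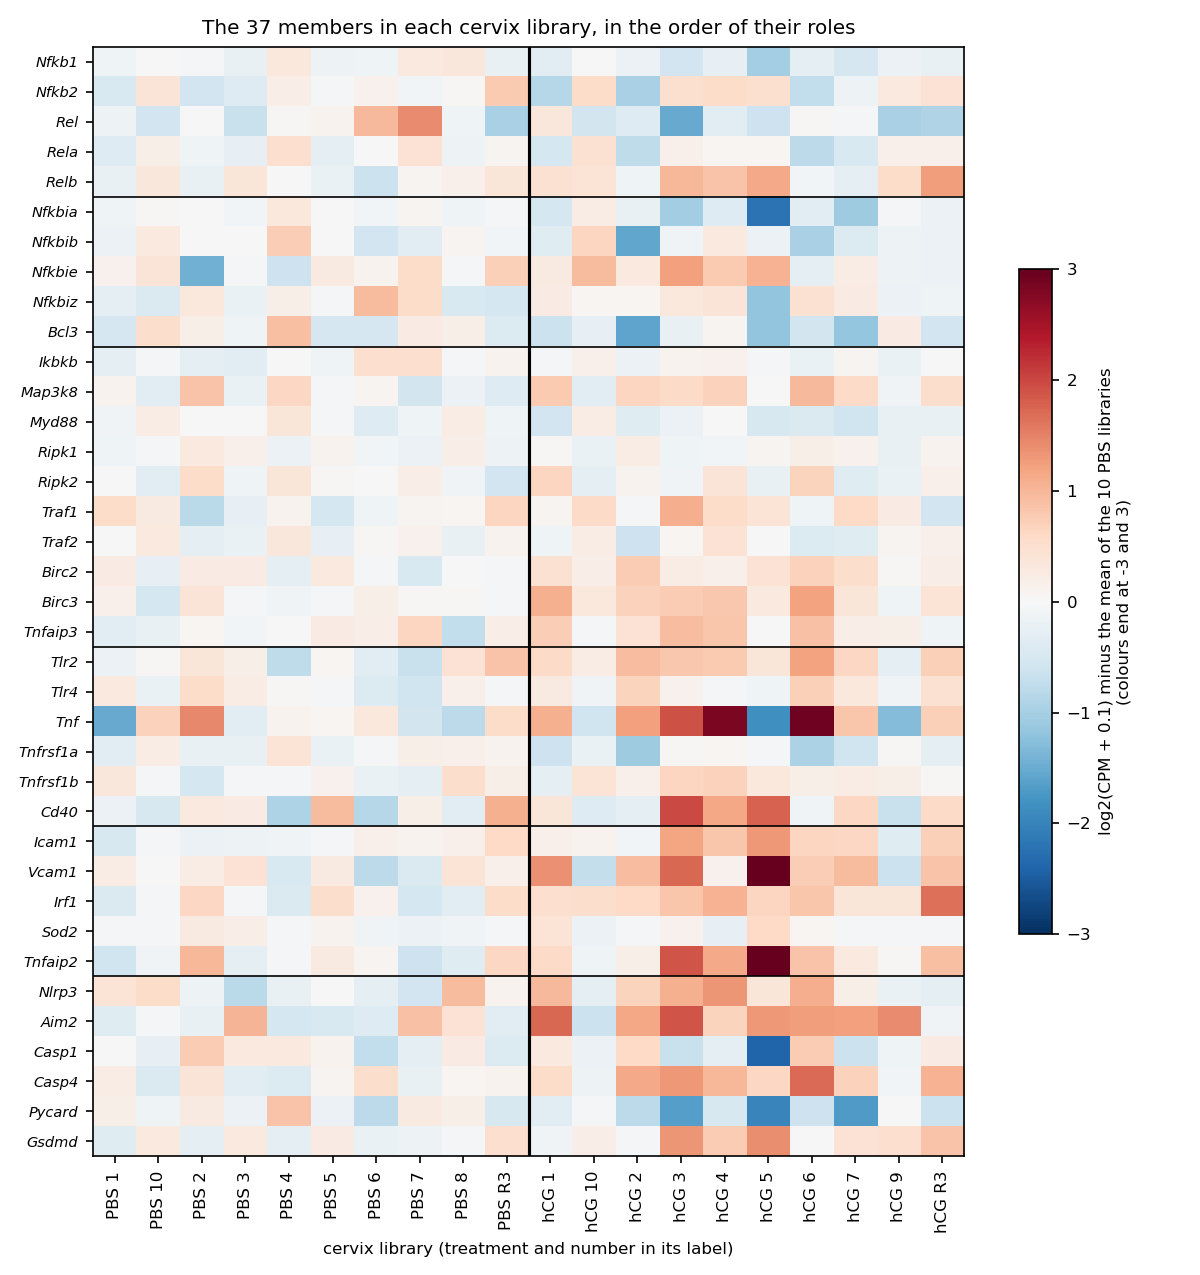
Log2(CPM + 0.1) of the 37 genes (rows, by role, separated by lines) in the 20 cervix libraries (columns) minus the mean of the PBS libraries, red for higher and blue for lower. Vcam1 and Tnfaip2 are darkest in hCG library 5, where Nfkbia, Casp1 and Pycard are at their lowest.

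Neutrophil markers moved with treatment in cervix, where 4 of 6 tested rose and their sum was 14.6 to 269 CPM with hCG against 11.2 to 25.1 CPM with PBS. They were highest in hCG libraries 1, 6, 4 and 2, at 269, 232, 194 and 107 CPM, while Ngp and Camp had medians under 0.1 CPM in both groups. Of the other markers, 3 of 12 macrophage, 1 of 6 dendritic cell, 1 of 6 endothelial and 5 of 5 urothelium markers rose and 2 of 8 squamous markers fell. The median urothelium sum was 18.0 CPM with PBS and 18.4 CPM with hCG. Only hCG libraries 5, 3 and R3 passed the highest PBS library, at 2304, 626 and 188 CPM against 61.4 CPM. With the neutrophil marker level as a covariate, an alternative chosen after seeing the data, the log2 fold change of Birc3 was 0.25 and that of Casp4 0.58, while Vcam1 stood at 1.37 and Tnfaip2 at 1.45, and only Tnfaip2 and Gsdmd passed. With the squamous marker level as a covariate, also chosen after seeing the data, Vcam1 stood at 0.20, Tnfaip2 at 0.13, Gsdmd at 0.14 and Icam1 at 0.14, while Birc3 stood at 0.75, Irf1 at 0.72 and Aim2 at 0.98, and none passed. With the urothelium marker level, chosen likewise, Vcam1 stood at 0.68 and Tnfaip2 at 0.52, and none passed. Of all 14932 genes tested, 1331 passed in the main fit and 721 with the neutrophil covariate. The urothelium covariate left 79 of all genes and the squamous covariate 0. The part of these cells in each change cannot be told apart from the treatment in such fits, since their markers differ between the groups.

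Within the deeper cervix libraries and within the shallower ones, all 7 genes had positive log2 fold changes and none passed. For Irf1 the values were 0.76 and 0.73, and for Birc2 0.33 and 0.32. The change was larger in the deeper libraries for Casp4 (1.10 and 0.41), Birc3 (0.72 and 0.31), Aim2 (1.30 and 0.66), Vcam1 (1.49 and 0.34) and Tnfaip2 (1.46 and 0.30). The difference between the depth classes was not tested. Over all genes tested, 242 of 15767 passed in the deeper libraries and 0 of 14394 in the shallower ones. Without hCG libraries 1, 3 and 5, in which skeletal muscle or urothelium markers were highest, none passed, with Vcam1 at 0.42 and Tnfaip2 at 0.46 but Casp4 at 0.87, Irf1 at 0.79 and Birc2 at 0.38. Without PBS libraries 5 to 8, none passed, with values between 0.34 and 1.17. Over all genes tested, 1 of 15636 passed in that fit, and 0 of 14755 without hCG libraries 1, 3 and 5.

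**Figure D4:**
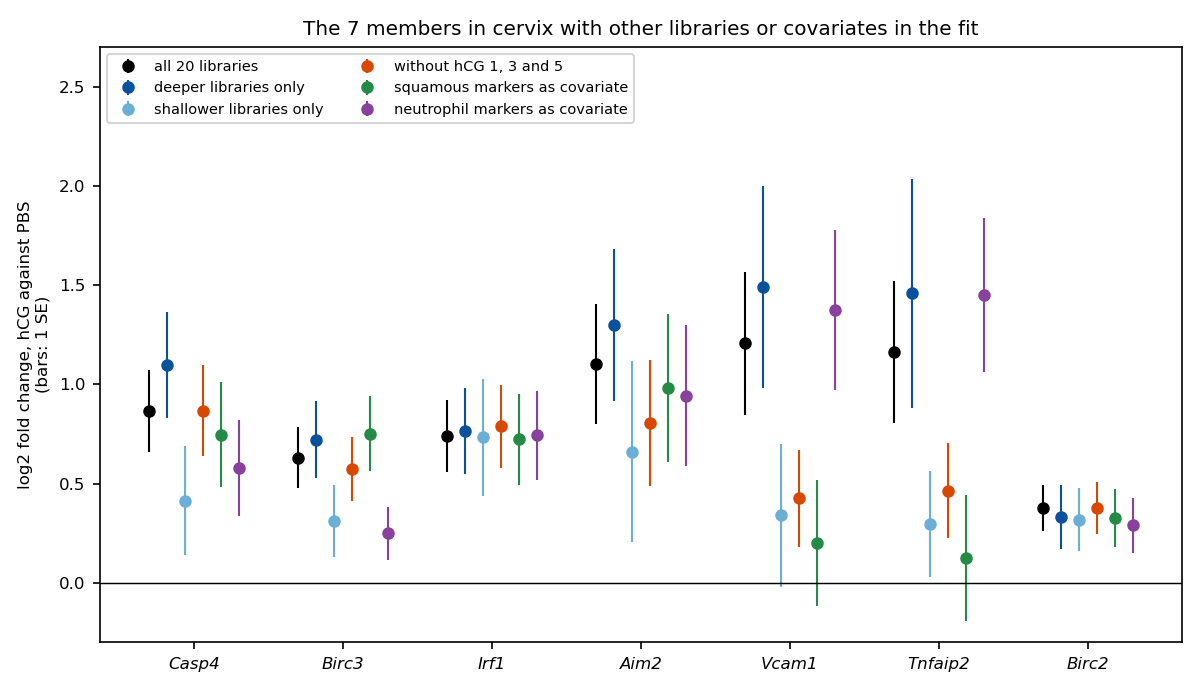
Log2 fold change in cervix (hCG against PBS, vertical axis, bars 1 SE) of the 7 genes that rose, with all 20 libraries (black) and with other libraries or covariates. Irf1 lies between 0.72 and 0.79 in every fit shown, whereas Vcam1 runs from 0.20 to 1.49.

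Other genes of the pathway were read from 4 lists, beside the 4.74% of all genes tested that rose. Of 28 receptors and adaptors tested, 2 rose in cervix and none fell, namely Cd14 (log2 1.25) and Tlr6 (1.02), which act beside Tlr4 and Tlr2 at the cell surface. Of 24 kinases, ubiquitin enzymes and inhibitors, none passed. Of 16 further NF-kB target genes 4 rose, namely the chemokine Cxcl10 (log2 2.78, SE 0.559), the dendritic cell maturation marker Cd83 (1.81), the atypical chemokine receptor Ccrl2 (1.14) and the antiapoptotic Bcl2a1b (1.59), whose reads could be split with near-identical copies. The plasminogen activator Plau fell by 0.91 on the log2 scale. Of 23 further inflammasome genes 2 rose, the cytokine Il1b and the gasdermin Gsdme (log2 1.42). Il1b ran from 1.18 through 1.71 to 2.82 CPM with PBS and from 0.803 through 16.4 to 60.1 CPM with hCG, with 7 of 10 hCG libraries above all PBS libraries and library R3 lowest (log2 3.53, SE 0.635, edgeR adjusted p = 0.0263). With the neutrophil marker level as a covariate it stood at 1.11 (SE 0.519, edgeR adjusted p = 0.187), and in the shallower libraries at 1.36. Without PBS library 7 or PBS library 8 none of these 8 genes that rose passed. Cd14, Tlr6, Cd83, Ccrl2, Bcl2a1b and Gsdme were also lost without hCG library 3 or PBS library 4, and Il1b without PBS library 4. Cxcl10 was tested in only 10 of the 20 fits with 1 library left out, being too low in the rest. Il18, the other cytokine matured by caspase-1, had medians of 4.45 and 8.29 CPM (log2 0.67, SE 0.27, edgeR adjusted p = 0.103).

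In myometrium, none of the 36 genes tested passed between hCG and PBS in edgeR's test, and 3 had an unadjusted p under 0.05. DESeq2 called none either. Over all 14517 genes tested, 0.0138% passed, 0.00689% higher and 0.00689% lower. An unadjusted p under 0.05 was reached by 15.5% of all genes tested. Tnf, at medians of 0.843 CPM with PBS and 0.596 CPM with hCG, was too low to be tested. The smallest p belonged to Sod2, at 66.7, 76.3 and 83.9 CPM with PBS and 74.0, 86.4 and 99.9 CPM with hCG (log2 0.18, SE 0.0681, edgeR adjusted p = 0.19). Ikbkb followed at 45.7, 58.5 and 67.0 CPM with PBS and 44.5, 51.1 and 57.6 CPM with hCG (log2 -0.19, SE 0.08, edgeR adjusted p = 0.257). Relb stood at 5.28, 7.25 and 9.86 CPM with PBS and 3.58, 5.91 and 7.62 CPM with hCG (log2 -0.33, SE 0.154, edgeR adjusted p = 0.306). In all 3 the groups overlapped. For the 7 genes that rose in cervix, the myometrial log2 fold changes lay between -0.15 (Vcam1, 95% interval -0.58 to 0.27) and 0.14 (Tnfaip2, -0.20 to 0.48). For Irf1 the interval was -0.20 to 0.16 and for Casp4 -0.16 to 0.43. The median over the list was -0.02, against 0.01 over all genes. No gene of the 4 lists of other pathway genes passed, and Il1b stood at medians of 1.84 and 2.0 CPM (log2 0.41, SE 0.298, edgeR adjusted p = 0.545). Yolk sac markers were uneven between myometrium libraries. The sum of 6 such markers ran from 32.9 through 571 to 19582.5 CPM with PBS. With hCG it ran from 170 through 3378 to 30933.9 CPM. With the yolk sac marker level as a covariate, none of the 36 genes passed, and 4 of all 14517 did. The part of this RNA in the other values was not tested.

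Whether the tissues responded differently was tested as an interaction in all 40 libraries. None of the 37 genes passed in edgeR's test, 13 had an unadjusted p under 0.05, and 5 had an adjusted p under 0.1. Over all genes tested, 19.97% had an unadjusted p under 0.05, and 741 of 15624 had an adjusted p under 0.1. Of all 15624 genes tested, 0.352% passed, 0.128% with the higher response in cervix and 0.224% with the lower. Irf1 came closest, with a cervical minus myometrial response of log2 0.75 (SE 0.209, edgeR adjusted p = 0.0648). In myometrium it ran from 24.3 through 34.1 to 44.7 CPM with PBS and from 28.6 through 33.9 to 37.8 CPM with hCG. Its cervix median was thus below both myometrial medians with PBS and above them with hCG. Relb differed by 0.92 (SE 0.256, edgeR adjusted p = 0.0655), from 0.60 in cervix and -0.33 in myometrium. In cervix its levels were 2.19, 3.62 and 4.52 CPM with PBS and 2.88, 5.0 and 8.53 CPM with hCG. Tnf differed by 2.05 (SE 0.66, edgeR adjusted p = 0.0922). Its myometrial libraries ran from 0.355 through 0.843 to 2.35 CPM with PBS and from 0.32 through 0.596 to 0.938 CPM with hCG. Tnf was tested only in comparisons that hold the hCG cervix libraries, being too low in the others. Among the other pathway genes Il1b passed, with a difference of 3.10 (SE 0.698, edgeR adjusted p = 0.041). That call was lost in 24 of 40 fits with 1 library left out, where the difference ran from 2.78 to 3.37 with an adjusted p of up to 0.0794.

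Without hCG, the 2 tissues differed in most of these genes. Of 36 tested in the PBS libraries, 7 were higher in cervix and 17 lower, and 12 did not pass. Across all 14545 genes tested, 54.0% passed in either direction, 28.0% higher and 26.1% lower in cervix. Higher in cervix were the subunits Nfkb1 and Rel, the regulators Nfkbia and Bcl3, the kinase Ripk2, the adaptor Pycard and the caspase Casp1. Lower were Relb, Nfkb2, Nfkbie, Map3k8, Traf1, Birc3, 4 receptors (Tlr2, Tlr4, Tnfrsf1b and Cd40), the effectors Icam1, Irf1 and Tnfaip2, and the inflammasome genes Nlrp3, Aim2, Casp4 and Gsdmd. The inflammasome genes were thus split, with adaptor and Casp1 higher and sensors, Casp4 and Gsdmd lower in cervix. Of the 7 genes that rose with hCG in cervix, 5 were lower there than in myometrium in PBS mice, and Vcam1 and Birc2 did not pass. These 2 comparisons share the PBS cervix libraries.

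Pycard differed most, at 50.3, 88.0 and 155 CPM in cervix against 8.29, 11.7 and 14.9 CPM in myometrium, with no overlap (log2 2.96, SE 0.176, edgeR adjusted p = 7.21e-12). An uncharacterised antisense gene overlaps 12.8% of the exons of Pycard, and since the counting strand is not given their reads cannot be told apart. Rel, the c-Rel subunit of lymphoid cells, stood at 4.93, 9.33 and 26.4 CPM against 2.16, 4.09 and 6.94 CPM (log2 1.32, SE 0.297, edgeR adjusted p = 0.000719). Nfkbia stood at 149, 162 and 204 CPM against 61.0, 75.5 and 96.6 CPM, without overlap (log2 1.13, SE 0.0964, edgeR adjusted p = 2.2e-09). In the other direction, Cd40 stood at 0.358, 0.78 and 1.72 CPM in cervix against 0.879, 2.14 and 5.43 CPM (log2 -1.59, SE 0.315, edgeR adjusted p = 0.000198). Traf1 stood at 0.759, 1.47 and 2.25 CPM against 2.0, 3.46 and 5.45 CPM (log2 -1.15, SE 0.227, edgeR adjusted p = 0.0002). Relb stood at 2.19, 3.62 and 4.52 CPM against 5.28, 7.25 and 9.86 CPM, without overlap (log2 -0.99, SE 0.16, edgeR adjusted p = 1.84e-05). The libraries of the tissues did not overlap for 6 of the 36 genes, Pycard, Nfkbia, Nfkb1, Tlr4, Gsdmd and Relb, and for 14.4% of all genes tested. Macrophage markers moved with this comparison, 11 of 12 being lower in cervix, with sums of 184 to 676 CPM against 926 to 1807 CPM, as did 5 of 6 endothelial markers, at 133 to 306 against 394 to 561 CPM. All 8 squamous markers were higher in cervix. All 6 yolk sac markers were lower in cervix, with sums of 5.27 to 89.2 CPM against 32.9 to 19582.5 CPM. The part of the cells behind these markers in the differences was not tested.

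**Figure D5:**
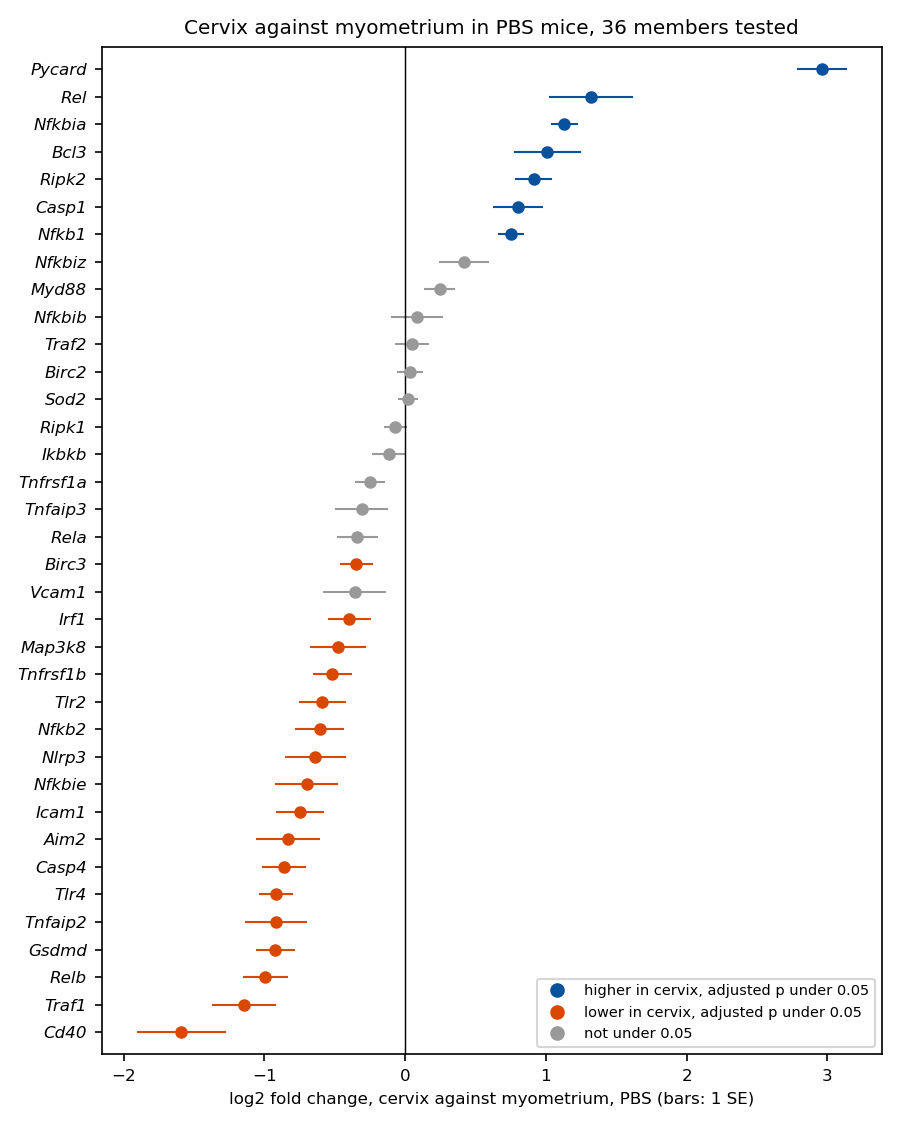
Log2 fold change (cervix against myometrium, PBS libraries, horizontal axis, bars 1 SE) of the 36 genes tested, in order. Blue and orange points passed an edgeR adjusted p of 0.05. Pycard stands apart at 2.96 and Cd40 is lowest at -1.59.

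Among the other pathway genes, the target list leaned towards myometrium, with 10 of 16 lower and 2 higher in cervix and a median log2 fold change of -1.05 against 0.04 over all genes. The acute phase gene Saa3 was listed at 0 in 5 of 10 PBS cervix libraries and ran from 9.75 to 264 CPM in myometrium, and Cd83 (log2 -2.42), Ier3 (-1.61) and Bcl2l1 (-1.05) were lower in cervix. In the next 3 lists the share that differed lay near or below the 54.0% of all genes. Of 28 receptors and adaptors, 10 were lower and 4 higher in cervix. Among the lower ones were the endosomal RNA sensors Tlr7 (-1.60) and Tlr8 (-1.86), the adaptor Ticam2 (-1.64) and Irak3 (-1.30). Of 24 kinases, ubiquitin enzymes and inhibitors 6 were higher, such as Tnip2 (0.52) and Tab3 (0.68), and 4 lower, such as Map3k3 (-0.76) and Tnip1 (-0.76). Of 22 inflammasome genes 4 were higher in cervix and 8 lower. Nlrp10, an NLR protein known from skin, stood at a median of 44.9 CPM in cervix and 3.29 CPM in myometrium (log2 4.08, SE 0.342), and the epithelial gasdermin Gsdmc at 12.8 CPM against a median of 0. Il18 was higher in cervix (log2 0.92, SE 0.28, edgeR adjusted p = 0.00825) and Il1b did not pass (log2 -0.04, SE 0.269, edgeR adjusted p = 0.916).

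Levels of different genes were set against each other per length of exon, counted as all annotated exon bases of a gene. The order therefore rests on the annotation. For Pycard this length was 3800 bases, longer than its whole RefSeq locus (127991373 to 127993867). In PBS cervix, Nfkbia was the most abundant of the 37 genes at a mean of 102 CPM per kilobase, followed by Casp1 at 26.4, Pycard at 23.7, Tnfrsf1a at 23.2 and Tlr4 at 15.2. Least abundant were Traf1 at 0.166, Cd40 at 0.254, Nlrp3 at 0.416, Tnf at 0.503 and Aim2 at 0.633 CPM per kilobase. The 7 genes that rose with hCG stood between 0.633 (Aim2) and 10.8 (Birc2) CPM per kilobase before it and between 1.33 and 13.9 after it. In PBS myometrium the order began with Nfkbia at 47.2, Tlr4 at 28.9 and Tnfrsf1a at 27.9 CPM per kilobase, and Pycard stood at 3.06.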

How the data were processed

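The authors deposited raw read counts per gene for 40 libraries in 4 groups, whole numbers whose totals differ between libraries. Per the labels' protocols, total RNA was made into stranded libraries. Per the submitters' processing notes, TopHat2 and GRCm38 (mm10) were used. The counting tool, annotation and strand setting were not given in the sources used here. Of 23079 identifiers, 23008 matched a RefSeq table of GRCm38.p6, and the 71 others held 0.197% of counts and were kept. Reads of antisense neighbours cannot be told apart, among them those of Irf1, Tnfaip2, Vcam1, Icam1, Pycard and Myd88. No library pair of a group was as alike as sampling noise allows, the smallest chi-square per gene being 11.05.

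Counts were filtered with filterByExpr, scaled by TMM and tested with edgeR 4.0.16 (R 4.3.3), quasi-likelihood F-test with robust dispersion, with Benjamini-Hochberg adjustment over all genes tested and a threshold of 0.05. The SE is the ratio of log2 fold change to the root of F. Intervals are 1.96 SE. The difference of responses is the interaction of tissue and treatment. CPM use TMM factors over the 40 libraries. CPM per kilobase divide by the merged length of all annotated exons of a gene in GENCODE M21. A count of 0 allows up to 3 counts, which is 0.12 CPM at the largest and 0.551 CPM at the smallest library size, counting error only. Scripts were tested on simulated data.

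The genes, lists and rules were chosen with earlier results of these data known. Named were genes past the threshold in an hCG comparison or the difference of responses, the 3 nearest misses, the 3 largest tissue differences each way, up to 4 genes per pathway list, Il1b and Il18. Marker lists held 103 genes, of which Ly6g and Trac were not matched. In cervix, Rbp4 was the 1 yolk sac marker that rose. Tests of T and NK cell, B cell, smooth muscle, fibroblast, glandular, adipocyte, skeletal muscle and decidual markers called none between hCG and PBS in cervix. Alternatives were DESeq2 1.42.0, RLE and upper-quartile factors, other filters, limma 3.58.1 voom weights, 2 surrogate variables (sva 3.50.0), depth terms, a block for the label's number, a joint fit of all libraries, left-out libraries and marker covariates.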

Additional observations from a re-analysis of the deposited data

Results flagged for a closer look

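Of 148 groups of 10 libraries checked (37 genes in 4 groups), 8 held a library far from the rest of its group, and chance alone sets apart about 1 in 20. Cervix hCG library 5 was low for 3 genes, at 35.3 CPM for Nfkbia (next lowest 78.5), 23.4 CPM for Nfkbiz (47.1) and 7.15 CPM for Casp1 (24.0), and its urothelium marker sum was 2304 CPM. Irf1 stood at 77.6 CPM in cervix hCG library R3, where the next highest hCG library had 51.1 CPM. Nfkbia stood at 204 CPM in cervix PBS library 4 (next 174) and Birc3 at 13.6 CPM in cervix PBS library 10 (next 18.3). In myometrium, Nfkb1 was 75.2 CPM in PBS library R4 (next 67.5) and 51.1 CPM in hCG library 6 (next 60.1). The response of Il1b differed between the tissues by log2 3.10 in the interaction test, a call lost in 24 of 40 fits with 1 library left out and with no filter, voom quality weights, total count as a covariate and the replicate block. The number of groups flagged lay near the share that chance alone gives. Whether anything else set these libraries apart was not tested.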

How the results depend on the processing

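In cervix 7 genes rose and 0 fell. The count that rose was 11 with DESeq2, 4 without a filter, 4 with voom quality weights, 12 with all 40 libraries in 1 fit, 3 with depth class as a term, 11 at an adjusted p under 0.1 and 2 with the neutrophil covariate. It was 0 with 2 surrogate variables, in the deeper or the shallower libraries alone, without hCG libraries 1, 3 and 5, without PBS libraries 5 to 8, and with the squamous or urothelium covariate. Over all genes tested, 708 rose in the main fit, 1156 with DESeq2 and 1831 with all 40 libraries in 1 fit. That number was 561 without a filter, 441 with voom weights, 198 with depth class and 438 with the neutrophil covariate. It was 0 with 2 surrogate variables, in the shallower libraries or with the squamous covariate. It was also 0 without hCG libraries 1, 3 and 5 or without PBS libraries 5 to 8. In the deeper libraries it was 98, and with the urothelium covariate 36. Among the 37 genes, the count that fell was 2 with DESeq2 (Nfkb1 and Pycard), 3 with all 40 libraries and 2 at an adjusted p under 0.1. Leaving out 1 library gave 0 to 10 higher and 0 to 3 lower. None rose without hCG 3, PBS 4, PBS 7 or PBS 8, 3 without hCG 5, hCG 7 or PBS 10, and 4 without hCG R3 or PBS 6. For the difference of responses, none passed in the test used, but 2 did with DESeq2, 1 with voom quality weights, 5 at an adjusted p under 0.1, 3 with the replicate block, and 0 to 5 with 1 library left out. Over all genes, 55 passed in the test used, 566 with DESeq2, 576 with voom quality weights and 741 at an adjusted p under 0.1. The log2 fold change of Il1b between tissues, near 0, ran from -0.143 to 0.0731 with 1 library left out. The counts between tissues stayed within 1.5 times of 7 and 17, and none of the 37 passed in myometrium in any alternative. Upper-quartile factors raised the median of all genes in cervix to 0.07. Same-numbered libraries did not deviate together in every pair: for PBS pairs of tissues the correlation ran from -0.25 to 0.57 (median 0.14, against -0.0042 over all pairs), with 5 of 9 over 0.1 and 3 matching their own number best, a hint from the data and not the design. With the number as an added term in edgeR, which joins hCG and PBS libraries of the same number, 9 genes rose in cervix. With that term 8 were higher and 19 lower in cervix than in myometrium. For the difference of responses the block was fitted in limma voom, as a correlation between libraries of the same treatment and number. Relb, Irf1 and Aim2 passed in that fit, and Il1b was lost (log2 2.42, limma voom adjusted p = 0.14). Calls over all genes went from 55 to 665 there, against 576 with voom quality weights and no block. Tool and block thus changed together. The cause of these changes was not tested. Depth limits the values of Tnf, Cd40, Bcl3, Nlrp3, Traf1 and Aim2, whose lowest counts in a library were 2, 3, 6, 7, 9 and 9.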

Other observations

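Of the 7 genes that rose in cervix, 3 lie on chromosome 9, on GRCm38.p6. Casp4 (5308849 to 5336791) follows Casp1 (5298517 to 5307281), and the neighbours had log2 fold changes of 0.87 and -0.09. Birc2 (7818226 to 7837131) and Birc3 (7847468 to 7873205) are likewise neighbours and rose by 0.38 and 0.63. The other 4 lie on chromosome 3 (Vcam1, 116110020 to 116129688), chromosome 11 (Irf1, 53770014 to 53778374), chromosome 12 (Tnfaip2, 111442450 to 111455018) and chromosome 1 (Aim2, 173349547 to 173466040).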
